A study of Homo sapiens with 23 samples.

Results

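Day 3 cardiac mesoderm was set against day 1 mesendoderm in H1 cells, an established human embryonic stem cell line that was being turned into heart muscle cells in culture. The comparison took every library labelled day 3 and every library labelled day 1, 3 of each, which is 6 of the 23 libraries of the series, and all genes of the deposited count table. Of 57521 genes in that table, 22245 had enough reads over the 23 libraries to be tested. With the 6 compared libraries alone that number was 17470, so some tested genes had few reads on both days. The remaining libraries ran from undifferentiated day 0 cells to day 28 cardiomyocytes. They entered through this filter and the shared estimate of the spread, and are quoted here as levels before and after the interval.

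All cells carried the genotype label WT, with no allele or transgene named. The day 3 cells bore the cell type label Cardiac mesoderm and the day 1 cells the label Mesendoderm. The stem cells had been kept in mTesR1 medium and grown to 80% confluency before seeding, and the cardiomyocytes were kept in RPMI medium with insulin. The agents that started the differentiation are not given in the sources used here. RNA was total RNA, with libraries made by a stranded kit that removes ribosomal RNA. All libraries came from 1 cell line, and the labels do not say whether libraries of one day were separate cultures, so p-values measure the spread between these libraries, which may be technical.

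As background, the first cells to leave the pluripotent state in the embryo pass through the primitive streak, a transient epithelium that expresses the T-box factors TBXT and EOMES and depends on WNT and NODAL signals. Cells that leave the streak early and migrate forward switch on MESP1, lose epithelial contacts and become cardiac mesoderm, from which heart muscle, endocardium and epicardium descend. BMP signalling supports this step, while WNT signals that act through beta-catenin are needed first and restrain heart formation afterwards.

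Depth was 20975832, 12210450 and 9252641 counts in day 3 replicates 1, 2 and 3, and 14731882, 21233225 and 13144827 counts in day 1 replicates 1, 2 and 3. Levels below are CPM (read counts relative to library size), scaled with the trimmed mean of M-values, and are always listed in the order of replicates 1, 2 and 3. The deepest library of each day, day 3 replicate 1 and day 1 replicate 2, stood apart from its fellows. Pearson's r of log2 CPM across genes was 0.985 between day 3 replicates 2 and 3, but 0.969 and 0.962 between each of them and replicate 1. At day 1 it was 0.994 between replicates 1 and 3, and 0.979 and 0.971 with replicate 2. Both deep libraries were higher in long genes. Among protein-coding genes in 5 groups of exon length, the median deviation of day 3 replicate 1 from its day was 0.27 in the longest group and -0.19 in the shortest on the log2 scale, and that of day 1 replicate 2 was 0.18 and -0.22 in the same groups.

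Gene length also moved with the day. The median log2 change between the days was -0.37 in the shortest group, which had a median exon length of 2110 bases, and 0.30 in the longest, at 11892 bases. With both deep libraries left out these medians were -0.34 and 0.36. In the shortest group 11.2% of genes were called higher at day 3 and 30.6% lower, and in the longest 30.3% were called higher and 14.8% lower. The part that length played in single genes was not tested. Counts for the gene lists are also given without day 3 replicate 1 and day 1 replicate 2, which leaves the length trend between the days in place. With length and GC trends removed, the medians of the shortest and longest groups were -0.24 and 0.0. Counts with that setting are given for some lists only.

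**Figure D1:**
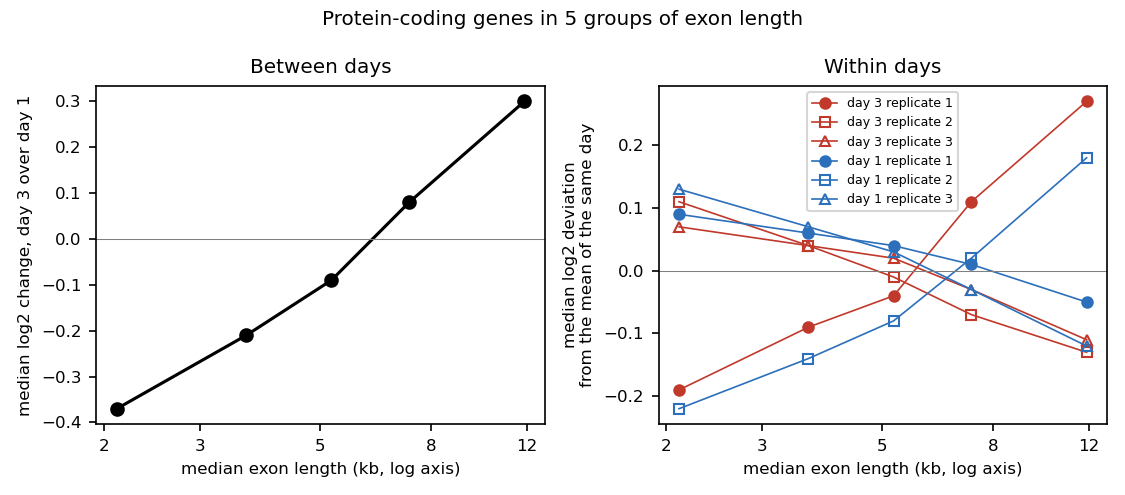
Protein-coding genes in 5 groups of exon length, by median exon length in kilobases on a log axis: the median log2 change of day 3 over day 1 (left) and each library's median log2 deviation from the mean of its own day (right). The change climbs with length, -0.37 in the shortest group and 0.30 in the longest, and day 3 replicate 1 and day 1 replicate 2 rise with length within their days.

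A gene was called when its adjusted p in edgeR's quasi-likelihood test, with Benjamini-Hochberg adjustment over all genes tested, was under 0.05. The call took in 37.2% of tested genes, with 18.2% higher and 19.0% lower at day 3. A change of at least 2-fold was called in 15.1% of genes upward and in 12.1% downward. The 3 day 3 libraries all lay above the 3 day 1 libraries for 21.7% of genes and all lay below them for 23.9%. The median log2 change over all genes tested was 0.04. With scaling by library totals that median was 0.27, and 64.0% of the calls were then upward against 48.9% with the scaling used here. These shares are the background for every gene list below, and the changes of single genes are given as log2 change ± standard error, day 3 over day 1.

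The label of the day 3 cells was set beside 23 genes that mark cardiac mesoderm. Like the other lists, this one was chosen with earlier results of these data known, so it is no independent check. Of these, 22 were higher at day 3, 0 were lower and 1 did not pass, and the median log2 change was 5.01. Without the 2 libraries that stood apart, 21 were higher. The summed level of the list was 2998, 3529 and 3510 CPM in the day 3 libraries, against 453, 554 and 439 CPM in the day 1 libraries. MESP1, the helix-loop-helix factor that starts the cardiac mesoderm programme, was at 26.6, 50.5 and 95.4 CPM in the day 3 libraries, against 1.47, 0.683 and 2.07 CPM in the day 1 libraries. Its neighbour and paralog MESP2 was at 21.9, 43.9 and 80.6 CPM at day 3, against 0.541, 0.683 and 1.21 CPM at day 1. For both genes the days did not overlap, and day 3 replicate 3 was the highest library. PDGFRA, the receptor that guides migrating mesoderm, was at 424, 217 and 162 CPM at day 3, against 2.94, 3.66 and 2.94 CPM at day 1, and here day 3 replicate 1 was the highest. The edgeR log2 changes of MESP1, MESP2 and PDGFRA were 5.40 ± 0.57, 5.92 ± 0.49 and 6.38 ± 0.44.

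HAND1, a helix-loop-helix factor of the first heart field and of extraembryonic mesoderm, was at 201, 263 and 168 CPM at day 3, against 0.0773, 0 and 0.0864 CPM at day 1. Its day 1 value rests on 2 reads in all 3 libraries together, so its fitted log2 change of 11.89 ± 0.57 (edgeR adjusted p = 1.69e-13) has no firm size. The one member that did not pass was KDR, the VEGF receptor of cardiovascular progenitors. KDR was at 205, 141 and 181 CPM at day 3, against 281, 426 and 228 CPM at day 1 (log2 change -0.83 ± 0.38, edgeR adjusted p = 0.0885). Each day 3 library held less KDR than each day 1 library, and the KDR mean was already 354 CPM at day 0. Since these are bulk libraries, fewer cells of a type and less RNA per cell cannot be told apart here or in any result below.

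**Figure D2:**
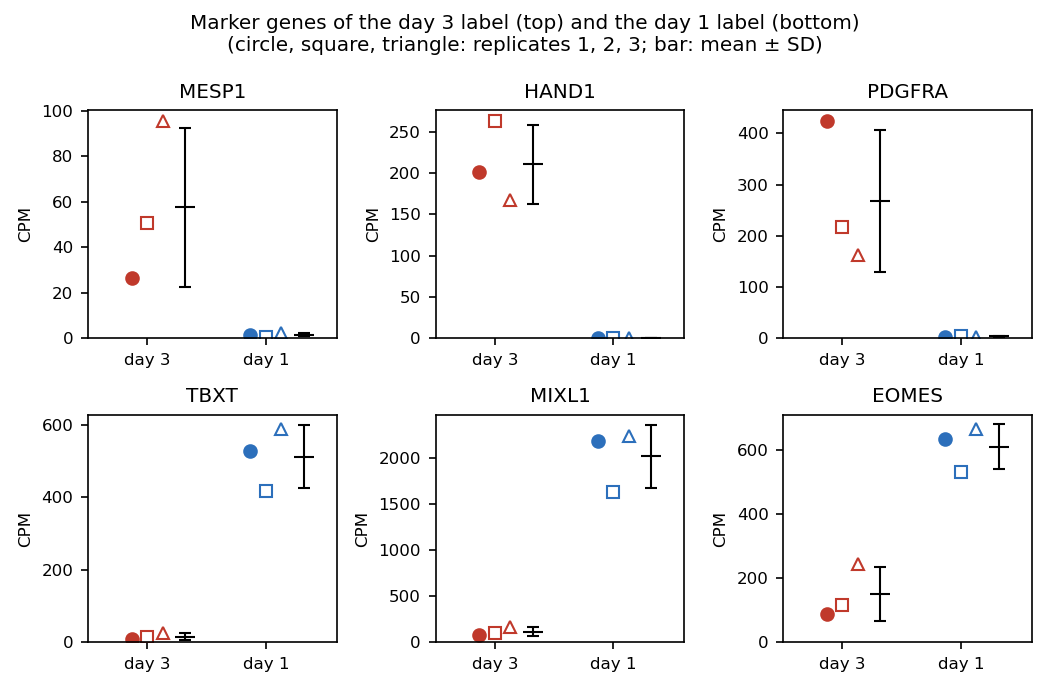
CPM in each library for MESP1, HAND1 and PDGFRA (top) and for TBXT, MIXL1 and EOMES (bottom), with day 3 left of day 1, 1 symbol per replicate and the mean ± SD beside them. Each day 3 library lies above all day 1 libraries for the top genes and below them for the bottom genes, with EOMES at 87.5 to 245 CPM at day 3 against 531 to 664 CPM at day 1.

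The day 1 label was set beside 20 genes of the primitive streak and mesendoderm, a list chosen in the same way. At day 3, 17 of them were lower and 2 higher, 1 did not pass, and the median log2 change was -2.35. Without the 2 libraries that stood apart, 16 were lower and 2 higher. Their summed level was 541, 759 and 1197 CPM in the day 3 libraries, against 5920, 4617 and 6279 CPM in the day 1 libraries. MIXL1, a homeobox factor of the streak, was at 81.3, 102 and 171 CPM at day 3, against 2183, 1624 and 2232 CPM at day 1. EOMES, which directly precedes MESP1 in mouse mesoderm, was at 87.5, 116 and 245 CPM at day 3, against 633, 531 and 664 CPM at day 1. Neither gene overlapped between the days, and in both, day 3 replicate 3 held the most. The edgeR log2 change was -2.03 ± 0.36 for EOMES and -4.99 ± 0.40 for TBXT, the defining factor of the streak.

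Streak genes with roles in the tail end of the embryo also fell. CDX1 was at 7.51, 12.5 and 10.5 CPM at day 3, against 177, 115 and 222 CPM at day 1 (-4.08 ± 0.35). The posterior homeobox gene EVX1 fell by 3.00 ± 0.27 and NKX1-2 by 4.33 ± 0.31 on the log2 scale. GSC, a homeobox gene of the anterior streak and organizer, was at 3.11, 4.44 and 7.94 CPM at day 3, against 86.1, 70.3 and 98.4 CPM at day 1. Both ends of the streak were thus represented among the genes that fell. The 2 members that rose were WNT8A and LHX1. LHX1, a homeobox factor of the organizer and of intermediate mesoderm, was at 50.2, 66.8 and 137 CPM at day 3, against 6.41, 5.37 and 7.60 CPM at day 1.

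**Figure D3:**
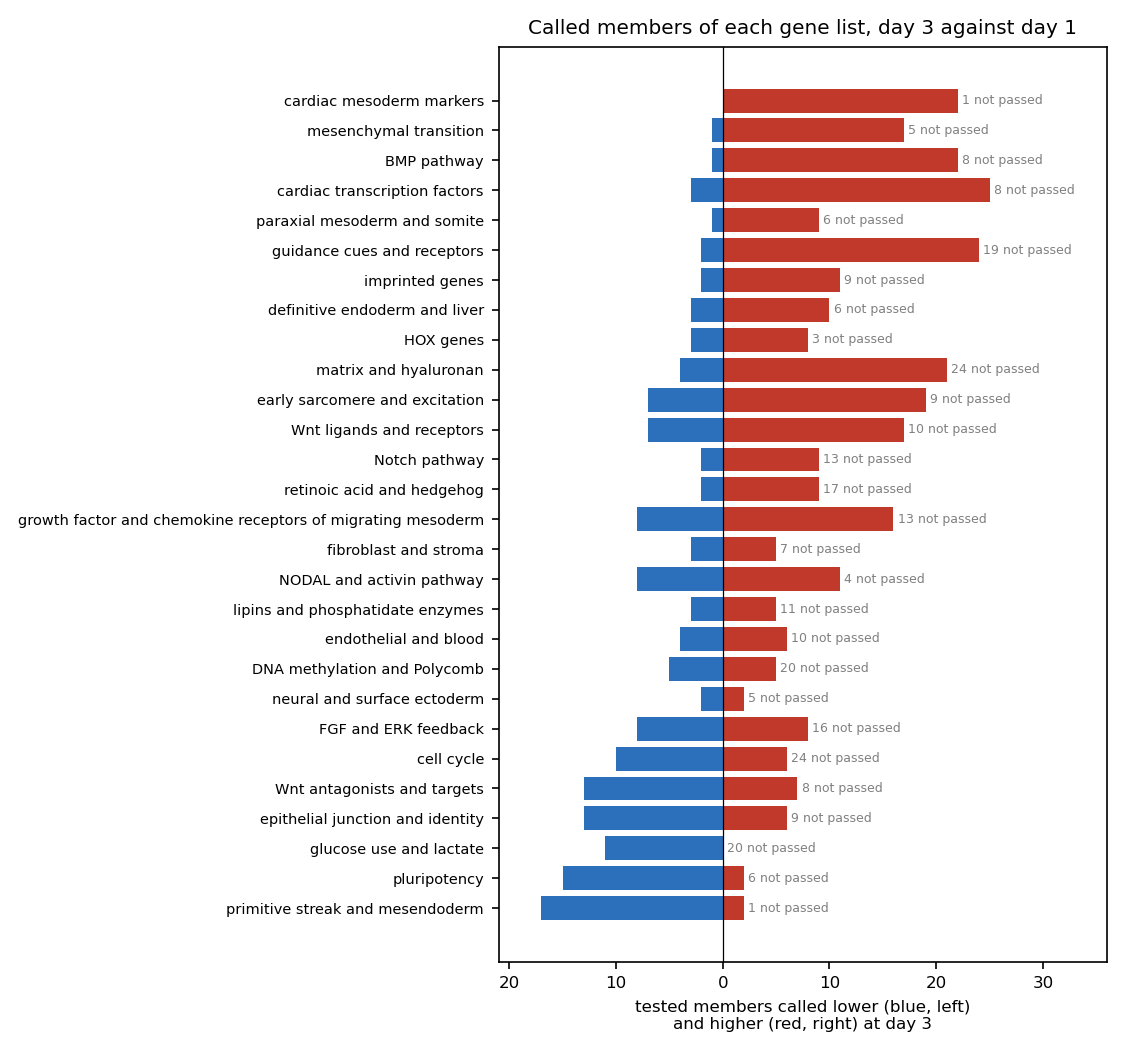
For each gene list, the number of tested members called lower at day 3 (blue, to the left) and higher at day 3 (red, to the right), with the number that did not pass in grey; lists are ordered by the balance of calls per tested member. Cardiac mesoderm markers are at one end with 22 higher and 0 lower, and primitive streak genes are at the other with 2 higher and 17 lower. The lists were chosen with earlier results of these data known.

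The 15 largest rises and 15 largest falls among named genes with at least 20 CPM on the higher day included genes outside these lists. ALPK2, an alpha-kinase that restrains WNT signalling in cardiac development, was at 624, 336 and 254 CPM at day 3, against 0.773, 1.07 and 1.73 CPM at day 1 (8.42 ± 0.43, edgeR adjusted p = 2.99e-13). ADAM12, a membrane-bound metalloprotease, was at 107, 78.3 and 82.5 CPM at day 3, against 0.232, 0.634 and 0.518 CPM at day 1. GPR55, a receptor for lysophospholipids, was at 23.3, 23.8 and 22.1 CPM at day 3, against 0, 0.146 and 0.0864 CPM at day 1. The GPR55 values of the 3 day 3 libraries were close to each other, whereas ALPK2 was highest in replicate 1. Levels of these genes parted afterwards, with means of 259, 20.6 and 2.39 CPM at day 5 for ALPK2, ADAM12 and GPR55. MOBP, named for its protein in myelin, was at 30.9, 16.9 and 26.8 CPM at day 3 and rested on 3 reads at day 1. Among the falls, CNMD, a cartilage glycoprotein, was at 1.91, 1.25 and 1.61 CPM at day 3, against 63.5, 54.4 and 53.5 CPM at day 1 (-5.14 ± 0.30, edgeR adjusted p = 3.63e-12), after a day 0 mean of 179 CPM.

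Promoter sequences were taken from RefSeq (GRCh38.p14) for HAND1, SEMA6D, NODAL and GDF3, picked from the 15 largest rises and 15 largest falls. They are examples and do not stand for the other genes of these lists. Each covers 250 bases before the start site and 50 from it, 5′ to 3′ on the gene's own strand. HAND1 lies on the minus strand at chr5:154478178-154478477, SEMA6D on the plus strand at chr15:47183839-47184138, NODAL on the minus strand at chr10:70441632-70441931 and GDF3 on the minus strand at chr12:7695726-7696025. HAND1 and SEMA6D, a transmembrane semaphorin, were among the 15 largest rises, and NODAL and GDF3, a pair of TGF-beta family ligands, were among the 15 largest falls. Capitals mark matches to the TCF/LEF letters CTTTGA or TCAAAG and to the GATA letters AGATAA or TTATCT, which are the same motifs read on either strand.
HAND1: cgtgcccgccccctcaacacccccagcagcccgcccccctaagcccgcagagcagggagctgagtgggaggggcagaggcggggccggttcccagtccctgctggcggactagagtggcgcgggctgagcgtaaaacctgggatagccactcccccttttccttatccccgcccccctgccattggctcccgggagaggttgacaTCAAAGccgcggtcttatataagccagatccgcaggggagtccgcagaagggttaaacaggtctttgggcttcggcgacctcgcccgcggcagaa
SEMA6D: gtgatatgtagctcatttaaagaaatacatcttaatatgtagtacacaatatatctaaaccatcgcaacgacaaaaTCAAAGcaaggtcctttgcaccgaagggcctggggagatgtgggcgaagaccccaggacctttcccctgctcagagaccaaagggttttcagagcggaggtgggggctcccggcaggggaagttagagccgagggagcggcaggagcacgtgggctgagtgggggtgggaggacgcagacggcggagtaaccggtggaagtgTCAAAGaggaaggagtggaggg
NODAL: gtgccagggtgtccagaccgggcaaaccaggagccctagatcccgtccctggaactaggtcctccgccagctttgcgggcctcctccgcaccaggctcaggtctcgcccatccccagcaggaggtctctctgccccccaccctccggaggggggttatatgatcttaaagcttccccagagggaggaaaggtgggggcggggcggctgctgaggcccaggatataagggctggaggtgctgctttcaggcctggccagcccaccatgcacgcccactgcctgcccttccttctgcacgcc
GDF3: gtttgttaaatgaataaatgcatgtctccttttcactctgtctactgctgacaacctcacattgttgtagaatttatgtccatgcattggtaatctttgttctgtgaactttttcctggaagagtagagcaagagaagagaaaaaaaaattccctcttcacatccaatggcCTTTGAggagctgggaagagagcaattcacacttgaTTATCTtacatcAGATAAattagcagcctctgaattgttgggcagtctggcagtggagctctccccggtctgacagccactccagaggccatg

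In the HAND1 sequence the TCF/LEF letters began 45 bases before the start site. The NODAL window held none of the motifs searched, and the GDF3 window held 1 TCF/LEF match and 2 GATA matches. TCF/LEF letters stood in 4 of the 13 promoters found for the 15 largest rises and in 3 of 12 for the falls. Of 13967 tested genes with a promoter in the table, 9.38% held the TCF/LEF letters on either strand, as did 10.3% of the 2609 genes called higher and 8.65% of the 3085 called lower. GATA letters stood in 6.44% of all promoters, 8.32% of those of genes called higher and 4.41% of those of genes called lower. The T-box letters AGGTGTGA or TCACACCT stood in 0.759% of all promoters, and the FOXH1 letters AATCCACA or TGTGGATT in 0.415%. For genes called higher and lower the T-box shares were 0.843% and 0.681%, and the FOXH1 shares 0.422% and 0.421%. The median number of CG pairs was 6 in 13 promoters of the 15 largest rises and 11 in 12 of the 15 largest falls. In all promoters of tested genes it was 25. Over all genes called higher and lower it was 23 and 25, close to that background. A match describes letters in a window and no binding was measured.

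Of 36 transcription factors known from heart development, 25 were higher at day 3, 3 lower and 8 did not pass, with a median log2 change of 2.58, and without the 2 libraries that stood apart the counts were 21 and 2. MEIS1, a homeobox cofactor of HOX proteins, was at 190, 113 and 65.1 CPM at day 3, against 0.696, 1.61 and 0.432 CPM at day 1 (6.96 ± 0.48, edgeR adjusted p = 3.78e-11). Its paralog MEIS2 was at 131, 78.1 and 62.9 CPM at day 3, against 0.386, 0.586 and 0.691 CPM at day 1. IRX3, an Iroquois homeobox factor, was at 62.7, 110 and 144 CPM at day 3, against 1.16, 1.07 and 1.81 CPM at day 1. The days were far apart for each of the 3 genes, yet MEIS1 and MEIS2 were highest in day 3 replicate 1 and IRX3 in day 3 replicate 3.

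A T-box repressor was among the risers. TBX3 was at 100, 99.7 and 117 CPM at day 3, against 3.40, 2.15 and 3.20 CPM at day 1 (5.19 ± 0.32, edgeR adjusted p = 8.72e-12). GATA5, an endocardial and endodermal zinc finger factor, was at 5.82, 9.49 and 7.23 CPM at day 3 and had 0 reads at day 1, which makes it at least 108-fold higher when 3 reads over the day are taken as the floor. GATA4 and GATA6, the factors most used in heart muscle, were already present at day 1 and rose by 1.52 ± 0.29 and 1.32 ± 0.26 on the log2 scale.

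Factors of committed heart muscle were near the floor at day 3. NKX2-5 was at 0.222, 0.311 and 0.603 CPM at day 3, against 0, 0 and 0.173 CPM at day 1 (edgeR adjusted p = 0.0617), and its day 5 mean was 84.6 CPM. TBX5, a T-box factor of the first heart field, was at 0.533, 0.156 and 0 CPM at day 3, against 0.0773, 0 and 0 CPM at day 1. It passed the test at an edgeR adjusted p of 0.00915 but no longer did so without day 3 replicate 1, and the days overlapped. MEF2C, a muscle activator, was at 0.755, 0.545 and 0.201 CPM at day 3, against 0.541, 0.293 and 0.432 CPM at day 1.

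Of 23 tested pluripotency genes, 15 were lower at day 3, 2 were higher and 6 did not pass, with a median log2 change of -1.63, and 11 were lower and 2 higher without the 2 libraries that stood apart. SOX2, which holds the stem cell state and drives neural fate, was at 2.04, 2.02 and 1.11 CPM at day 3, against 26.4, 26.4 and 18.3 CPM at day 1, after a day 0 mean of 209 CPM. POU5F1, the core factor OCT4, was at 108, 205 and 269 CPM at day 3, against 2050, 1358 and 2277 CPM at day 1 (-3.29 ± 0.50, edgeR adjusted p = 1.16e-05), with a day 0 mean of 1642 CPM. LIN28A, an RNA-binding protein that blocks let-7 maturation, was at 2181, 3127 and 2919 CPM at day 3, against 3795, 2452 and 4164 CPM at day 1, and did not pass. ZIC2, a zinc finger factor, fell to 20.3, 35.5 and 39.6 CPM at day 3, against 232, 184 and 239 CPM at day 1.

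WNT ligands and receptors moved in both directions. Of 34 tested, 17 were higher at day 3, 7 lower and 10 did not pass, with a median log2 change of 0.95, and 15 were higher and 5 lower without the 2 libraries that stood apart. WNT5A, a ligand that mostly acts without beta-catenin and steers cell movement, was at 225, 166 and 171 CPM at day 3, against 4.33, 5.47 and 4.84 CPM at day 1 (5.26 ± 0.29, edgeR adjusted p = 1.37e-12). Its close relative WNT5B was at 8.40, 10.3 and 10.7 CPM at day 3, against 115, 86.2 and 137 CPM at day 1 (-3.52 ± 0.32, edgeR adjusted p = 4.08e-09). WNT3, the ligand that induces the streak in mouse embryos, was at 70.0, 74.4 and 78.7 CPM at day 3, against 97.4, 73.1 and 104 CPM at day 1, with overlap between the days and an edgeR adjusted p of 0.268. WNT5A and WNT5B thus changed in opposite directions by more than the spread of either day, and WNT3 did not pass. WNT4 rose by 4.53 ± 0.42 and WNT11, known to promote heart formation in frog and mouse, by 3.45 ± 0.63 on the log2 scale. WNT8A was at 22.8, 28.8 and 70.9 CPM at day 3, against 10.3, 9.32 and 8.73 CPM at day 1. WNT3A was at 2.58, 7.24 and 15.3 CPM at day 3, against 22.1, 16.9 and 27.4 CPM at day 1, and its call (edgeR adjusted p = 0.0122) was lost without day 3 replicate 1, day 3 replicate 2 or day 1 replicate 3.

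Receptors were split as well. FZD10, a Frizzled receptor of the streak, was at 2.62, 3.27 and 4.72 CPM at day 3, against 39.5, 30.5 and 43.7 CPM at day 1 (-3.44 ± 0.34). FZD4 was at 61.3, 31.6 and 38.5 CPM at day 3, against 7.03, 9.76 and 5.27 CPM at day 1 (2.56 ± 0.34). Frizzled genes therefore moved in both directions, FZD2, FZD7 and FZD8 upward by 1.82, 1.38 and 1.68 and FZD9 downward by 1.35 on the log2 scale. LGR5, a receptor for R-spondins that amplifies WNT signals, was at 106, 50.8 and 31.9 CPM at day 3, against 0.541, 1.07 and 0.864 CPM at day 1 (6.20 ± 0.47, edgeR adjusted p = 1.8e-10), and fell back to a mean of 11.9 CPM at day 5.

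WNT antagonists and targets also moved in both directions. Of 28, 7 were higher at day 3, 13 lower and 8 did not pass, with a median log2 change of -0.33, and the counts were again 7 and 13 without the 2 libraries that stood apart. SFRP5, a secreted WNT binder of the cardiac inflow, was at 87.9, 115 and 73.5 CPM at day 3, against 1.62, 1.85 and 2.59 CPM at day 1 (5.51 ± 0.42). SFRP2, another secreted binder, was at 11.2, 17.1 and 17.1 CPM at day 3, against 244, 172 and 254 CPM at day 1 (-3.89 ± 0.27). DKK1, an inhibitor of the LRP co-receptors, was at 180, 201 and 297 CPM at day 3, against 770, 882 and 752 CPM at day 1. SFRP5 rose while SFRP2 and DKK1 fell, and the day 3 level of DKK1 lay above its day 0 mean of 0.492 CPM. Feedback targets of beta-catenin differed in the same libraries. AXIN2, a destruction complex scaffold, was at 63.5, 68.1 and 74.8 CPM at day 3, against 186, 147 and 179 CPM at day 1. NKD1, a feedback inhibitor, was at 270, 260 and 264 CPM at day 3, against 284, 238 and 291 CPM at day 1 (log2 change -0.03 ± 0.23, edgeR adjusted p = 0.927). Among the nuclear partners of beta-catenin, LEF1 rose by 1.5 ± 0.26 and TCF7L2 by 1.84 ± 0.21, while TCF7 fell by 0.83 ± 0.22 on the log2 scale.

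**Figure D4:**
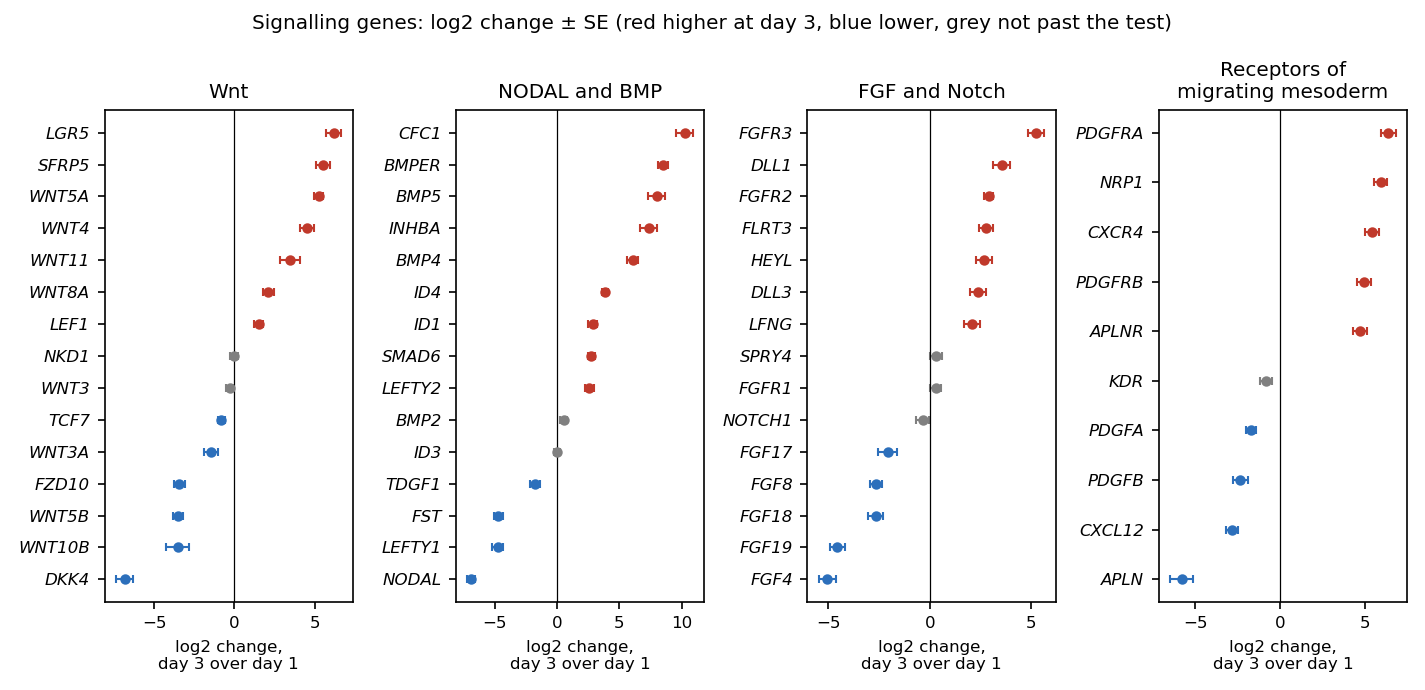
Log2 change of day 3 over day 1, ± standard error, for ligands, receptors, inhibitors and targets of 4 groups of pathways; red genes were called higher at day 3, blue genes lower, and grey genes did not pass. WNT5A (5.26) and WNT5B (-3.52) lie on opposite sides of 0, as do CFC1 and TDGF1. In the rightmost panel PDGFRA, PDGFRB, CXCR4, NRP1 and APLNR lie above 0 and the ligands below it. The receptor KDR, which did not pass, lies below 0 with the ligands.

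NODAL, the ligand that patterns the streak, was at 3.55, 4.51 and 3.11 CPM at day 3, against 487, 339 and 494 CPM at day 1. Of 23 tested genes of the NODAL and activin pathway, 11 were higher at day 3, 8 lower and 4 did not pass, with a median log2 change of 0.45, and 7 were higher and 8 lower without the 2 libraries that stood apart. Its co-receptors parted. CFC1, known as Cryptic, was at 39.4, 52.0 and 25.7 CPM at day 3 on a base of 1 read at day 1, and the near-identical copy CFC1B may share its reads. TDGF1, known as Cripto, was at 71.5, 73.1 and 178 CPM at day 3, against 396, 344 and 349 CPM at day 1 (-1.76 ± 0.41). The feedback inhibitors also parted, although LEFTY1 and LEFTY2 are close copies whose reads could be mixed. LEFTY2 was at 8.57, 28.3 and 47.8 CPM at day 3, against 5.49, 3.42 and 5.01 CPM at day 1, whereas LEFTY1 was at 0.178, 0.700 and 0.603 CPM at day 3, against 14.9, 8.59 and 13.5 CPM at day 1. FST, which traps activin, was at 11.8, 13.2 and 19 CPM at day 3, against 384, 360 and 387 CPM at day 1, and INHBA, the subunit of activin A, was at 21.0, 10.3 and 5.32 CPM at day 3, against 0.0773, 0.0488 and 0.0864 CPM at day 1. The ligand and its trap had opposite calls, with no overlap of the days in either. FOXH1, the DNA-binding partner of SMAD2 and SMAD3, fell by 1.47 ± 0.31 and SMAD3 itself rose by 1.80 ± 0.20 on the log2 scale.

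Of 31 genes of the BMP pathway, 22 were higher at day 3, 1 lower and 8 did not pass, with a median log2 change of 1.83, and 19 were higher and 1 lower without the 2 libraries that stood apart. The ligand BMP4 was at 172, 219 and 138 CPM at day 3, against 3.09, 2.25 and 2.59 CPM at day 1, and BMP5 was at 81.9, 37.3 and 21.5 CPM at day 3, against 0.155, 0.195 and 0.173 CPM at day 1. BMP2 was at 113, 130 and 147 CPM at day 3, against 93.4, 78.2 and 98.1 CPM at day 1, and did not pass (edgeR adjusted p = 0.168). BMP4 and BMP5 were thus low in each day 1 library, while BMP2 was present on both days. Direct targets of BMP signalling followed in part. ID1, an inhibitor of helix-loop-helix factors, was at 139, 190 and 209 CPM at day 3, against 24.6, 17.7 and 31.8 CPM at day 1 (2.86 ± 0.36), and ID4 rose by 3.84 ± 0.27 on the log2 scale. ID3 was at 189, 312 and 267 CPM at day 3, against 280, 181 and 308 CPM at day 1. ID1 and ID4 rose and ID3 did not pass, with its 2 sets of libraries fully mixed.

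Several inhibitors of BMP signalling rose. SMAD6, which blocks the receptors inside the cell, was at 96.7, 130 and 120 CPM at day 3, against 17.4, 13.6 and 21.0 CPM at day 1 (2.74 ± 0.28, edgeR adjusted p = 2.75e-08). The decoy receptor BAMBI was at 242, 252 and 135 CPM at day 3, against 41.5, 33.7 and 53.0 CPM at day 1. GREM1, a secreted antagonist, was at 16.8, 6.85 and 3.42 CPM at day 3, against 0.155, 0.293 and 0.173 CPM at day 1. Their relatives CHRD and NOG rose by 2.62 ± 0.39 and 1.83 ± 0.44 on the log2 scale. The single BMP gene that fell was CHRDL1, an X-linked antagonist, at 0.977, 0.700 and 1.00 CPM at day 3 against 8.11, 14.7 and 7.09 CPM at day 1.

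Of 32 genes of FGF signalling and its feedback, 8 were higher at day 3, 8 lower and 16 did not pass, with a median log2 change of 0.02, and 5 were higher and 8 lower without the 2 libraries that stood apart. FGF4 was at 6.71, 8.87 and 18.4 CPM at day 3, against 385, 373 and 351 CPM at day 1. FGF17 was at 5.82, 15.9 and 46.4 CPM at day 3, against 95.2, 71.1 and 118 CPM at day 1. FGF8, needed for cells to leave the streak in mouse embryos, was at 4.71, 6.77 and 6.73 CPM at day 3, against 40.0, 28.6 and 45.6 CPM at day 1. These 3 ligands fell, with FGF17 highest in day 3 replicate 3, whereas FGF3 rose by 3.53 on the log2 scale and FGF2 did not pass. FGFR3 was at 99.8, 135 and 129 CPM at day 3, against 2.24, 3.27 and 4.23 CPM at day 1 (5.22 ± 0.41), and FGFR2 rose by 2.89 ± 0.24 on the log2 scale. FGFR1, the receptor best known in early mesoderm, was at 224, 314 and 324 CPM at day 3, against 251, 192 and 266 CPM at day 1 (edgeR adjusted p = 0.388). ETV4, an ETS factor induced by FGF signals, was at 12.6, 23.3 and 30.1 CPM at day 3, against 182, 136 and 200 CPM at day 1, whereas the feedback phosphatase DUSP6 was at 108, 86.1 and 109 CPM at day 3, against 135, 135 and 123 CPM at day 1, and did not pass.

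Of 24 genes of the Notch pathway, 9 were higher at day 3, 2 lower and 13 did not pass, with a median log2 change of 0.51, and 9 were higher and 0 lower without the 2 libraries that stood apart. DLL3 was at 58.4, 139 and 205 CPM at day 3, against 27.7, 19.9 and 30.9 CPM at day 1, and DLL1 was at 14.7, 31.0 and 62.0 CPM at day 3, against 3.17, 2.29 and 3.80 CPM at day 1. JAG1, the ligand mutated in Alagille syndrome, was at 147, 149 and 221 CPM at day 3, against 54.6, 51.4 and 52.6 CPM at day 1. Each of these ligands was highest in day 3 replicate 3, and the ligand genes DLL4 and JAG2 did not pass. The targets HEY1, HEYL and HES4 rose by 2.32, 2.67 and 3.92 on the log2 scale, and HEY2, a ventricular target, did not pass at 13, 16.6 and 14.1 CPM at day 3, against 14.8, 12.8 and 14.9 CPM at day 1.

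Genes of retinoic acid and hedgehog signalling gave 9 higher, 2 lower and 17 that did not pass of 28 tested, with a median log2 change of 0.49. Without the 2 libraries that stood apart, 9 were higher and 1 lower, and with the length and GC trends removed 15 were higher and 2 lower. ALDH1A2, which makes retinoic acid in the embryo, was at 13.4, 8.25 and 5.12 CPM at day 3, against 0.696, 0.976 and 1.12 CPM at day 1. RXRG, a nuclear receptor, was at 18.7, 32.3 and 36.2 CPM at day 3, against 0.850, 0.683 and 0.518 CPM at day 1 (5.38 ± 0.39, edgeR adjusted p = 2.11e-10). CYP26A1, which degrades retinoic acid, was at 6.13, 19 and 96.9 CPM at day 3, against 30.7, 18.5 and 30.6 CPM at day 1. The day 3 libraries lay both below and above the day 1 range for CYP26A1, and it did not pass. The hedgehog receptor and target PTCH1 was at 100, 101 and 147 CPM at day 3, against 22.5, 22.6 and 21.9 CPM at day 1, while the target GLI1 was at 9.55, 14.5 and 15.8 CPM at day 3, against 10.6, 8.10 and 12.1 CPM at day 1, and did not pass.

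Growth factor and chemokine receptors that act in migrating mesoderm were read with their ligands. Of 37 tested, 16 were higher at day 3, 8 lower and 13 did not pass, with a median log2 change of 0.72, and 15 were higher and 6 lower without the 2 libraries that stood apart. APLNR, the apelin receptor of gastrulating mesoderm, was at 1040, 1633 and 1744 CPM at day 3, against 55.6, 41.8 and 71.8 CPM at day 1, and its ligand APLN was at 0, 0.0778 and 0.301 CPM at day 3, against 6.18, 4 and 7.00 CPM at day 1. CXCR4, a chemokine receptor, was at 35.9, 53.0 and 112 CPM at day 3, against 1.78, 1.46 and 1.47 CPM at day 1, and its ligand CXCL12 was at 3.24, 3.42 and 9.74 CPM at day 3, against 40.1, 32.5 and 40.4 CPM at day 1. PDGFRB rose by 4.95 ± 0.41, while the PDGF ligand genes PDGFA and PDGFB fell by 1.69 ± 0.29 and 2.35 ± 0.44 on the log2 scale. In these 3 systems, picked after their values were seen, the receptor was called higher and a ligand lower. NRP1, a co-receptor for VEGF and semaphorins, was at 354, 190 and 116 CPM at day 3, against 4.10, 3.12 and 3.63 CPM at day 1 (5.93 ± 0.40, edgeR adjusted p = 2.6e-11).

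Of 28 epithelial genes, 6 were higher at day 3, 13 lower and 9 did not pass (median log2 change -0.78), and of 23 mesenchymal genes, 17 were higher, 1 lower and 5 did not pass (median log2 change 2.45). Without the 2 libraries that stood apart, the epithelial list had 6 higher and 12 lower and the mesenchymal list 16 higher and 0 lower. The summed level of the epithelial list showed no fall. It was 4708, 5613 and 5562 CPM at day 3, against 4687, 4245 and 4866 CPM at day 1. CDH1, the epithelial cadherin, was at 104, 84.0 and 154 CPM at day 3, against 433, 390 and 393 CPM at day 1 (-1.83 ± 0.41, edgeR adjusted p = 0.00101). CDH11, a mesenchymal cadherin, was at 772, 459 and 375 CPM at day 3, against 29.1, 38.6 and 23.3 CPM at day 1 (4.14 ± 0.39, edgeR adjusted p = 8.78e-09). CDH2, the neural and cardiac cadherin, was at 578, 347 and 494 CPM at day 3, against 324, 484 and 267 CPM at day 1. The epithelial cadherin fell and CDH11 rose without overlap, but CDH2 overlapped and did not pass, after a day 0 mean of 63.3 CPM.

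Repressors of epithelial genes rose or did not pass. SNAI2 was at 48.8, 37.2 and 52.6 CPM at day 3, against 1.08, 1.12 and 1.12 CPM at day 1, while SNAI1 was at 16.2, 30.4 and 38.2 CPM at day 3, against 30, 22.8 and 32 CPM at day 1, and did not pass. TWIST1, ZEB1 and ZEB2 rose by 4.75, 4.49 and 2.93 on the log2 scale. PRRX1, a homeobox factor of mesenchyme, was at 41.6, 16.7 and 2.21 CPM at day 3, against 0.155, 0.195 and 0.173 CPM at day 1, and so differed strongly among the day 3 libraries. Of the epithelial genes, CLDN7, a tight junction protein, was at 12, 20.9 and 24.9 CPM at day 3, against 137, 99.6 and 147 CPM at day 1. KRT19, a keratin, went up instead, at 599, 1031 and 1167 CPM at day 3 against 190, 146 and 225 CPM at day 1 (2.32 ± 0.34), and LAMA1, a basement membrane laminin chain, rose by 1.41 ± 0.28 on the log2 scale. EPCAM, a general epithelial surface protein, was at 208, 173 and 258 CPM at day 3, against 259, 319 and 263 CPM at day 1, and did not pass.

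Of 49 matrix genes, 21 were higher at day 3, 4 lower and 24 did not pass, with a median log2 change of 0.79, and counts of 19 and 3 without the 2 libraries that stood apart. HAS2, the enzyme that makes the hyaluronan of the cardiac jelly, was at 1212, 604 and 489 CPM at day 3, against 17.9, 28.9 and 16.9 CPM at day 1 (5.17 ± 0.45, edgeR adjusted p = 1.61e-09). Its paralog HAS3 was at 3.33, 6.07 and 9.14 CPM at day 3, against 55.1, 44.4 and 62.8 CPM at day 1 (-3.16 ± 0.33, edgeR adjusted p = 4.62e-08). FBN2, an early fibrillin, was at 1527, 1057 and 1044 CPM at day 3, against 96.5, 186 and 81.8 CPM at day 1. The hyaluronan synthases HAS2 and HAS3 thus had opposite calls, and FBN2 rose in all day 3 libraries. COL2A1, a fibrillar collagen of cartilage and early mesoderm, was at 262, 360 and 345 CPM at day 3, against 31.5, 24.5 and 32.7 CPM at day 1. ITGA9, an integrin chain, was at 287, 200 and 252 CPM at day 3, against 9.89, 10.4 and 8.81 CPM at day 1, and ITGB5 fell by 1.83 ± 0.25 on the log2 scale. COL3A1, a fibrillar collagen of connective tissue, did not pass, at 0.977, 0.856 and 0.402 CPM at day 3, against 0.618, 0.146 and 0.432 CPM at day 1, and a mean of 1060 CPM at day 5.

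Guidance genes, first known from growing nerves, gave 24 higher, 2 lower and 19 that did not pass of 45 tested, with a median log2 change of 0.98 and counts of 19 and 2 without the 2 libraries that stood apart. With the length and GC trends removed, 24 were higher and 6 lower. UNC5C, a netrin receptor, was at 157, 85.8 and 47.9 CPM at day 3, against 1.00, 2.20 and 1.81 CPM at day 1 (5.82 ± 0.44). PLXNA2, a semaphorin receptor of the cardiac outflow, was at 250, 421 and 555 CPM at day 3, against 57.1, 46.9 and 57.4 CPM at day 1. SLIT3, a ligand for ROBO receptors, was at 25.3, 29.0 and 25.2 CPM at day 3, against 1.55, 1.81 and 0.951 CPM at day 1. These 3 rose in every day 3 library. EPHA1 was at 20.7, 34.9 and 43.2 CPM at day 3, against 276, 216 and 315 CPM at day 1, and was with SEMA6A (-1.32 ± 0.24) one of the 2 that fell.

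HOX genes, which set position along the body axis, were sparse: 25 of 39 were not tested, and of 14 tested, 8 were higher at day 3, 3 lower and 3 did not pass. The median log2 change was 2.55, or 2.18 with genes at 0 on day 1 placed at their floor, and 5 were higher and 1 lower without the 2 libraries that stood apart. HOXB2 was at 16.5, 18.4 and 9.24 CPM at day 3, against 0.309, 0.244 and 0.778 CPM at day 1 (5.13 ± 0.41), and HOXB3 was at 22.3, 23.4 and 13.9 CPM at day 3, against 2.01, 1.32 and 2.16 CPM at day 1 (3.46 ± 0.27). HOXB1 and HOXB4 rose by 2.49 ± 0.38 and 2.61 ± 0.42 on the log2 scale. These 4 HOXB genes rose with no overlap of the days.

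Among 30 genes of DNA methylation and Polycomb repression, 5 were higher at day 3, 5 lower and 20 did not pass, with a median log2 change of -0.01, and 4 were higher and 4 lower without the 2 libraries that stood apart. With the length and GC trends removed, 7 were higher and 9 lower. DNMT3B, the de novo DNA methyltransferase of early embryos, was at 316, 401 and 385 CPM at day 3, against 1560, 1164 and 1748 CPM at day 1. DNMT3A was at 166, 187 and 196 CPM at day 3, against 174, 141 and 193 CPM at day 1, and did not pass. TET2, which oxidises methylated cytosine, was at 35.3, 20.2 and 20.3 CPM at day 3, against 4.02, 6.74 and 4.75 CPM at day 1 (2.28 ± 0.35). DNMT3B fell, its paralog DNMT3A did not pass, and TET2 rose. The Polycomb ring protein BMI1 was at 23.8, 16.0 and 8.94 CPM at day 3, against 3.25, 3.32 and 2.68 CPM at day 1 (2.40 ± 0.36), and the core subunits EZH2, EED and SUZ12 did not pass.

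Of 40 cell cycle genes, 6 were higher at day 3, 10 lower and 24 did not pass, with a median log2 change of -0.48, and counts of 3 and 7 without the 2 libraries that stood apart. With scaling by library totals the balance of this list turned, with 9 higher and 7 lower. CDK6, a G1 kinase, was at 205, 109 and 43.6 CPM at day 3, against 4.41, 6.10 and 4.67 CPM at day 1 (4.55 ± 0.52, edgeR adjusted p = 2.05e-07). Cyclins that partner it fell. CCND1 was at 85.4, 82.5 and 96.7 CPM at day 3, against 280, 248 and 290 CPM at day 1, and CCND2 was at 151, 112 and 231 CPM at day 3, against 440, 624 and 381 CPM at day 1. The G1 kinase and its cyclins had opposite calls without overlap. CCNE1 fell by 1.68 ± 0.21 and CCNE2 rose by 1.45 ± 0.28 on the log2 scale. The proliferation marker MKI67 was at 269, 123 and 90.5 CPM at day 3, against 47.0, 67.5 and 42.7 CPM at day 1, and its call (edgeR adjusted p = 0.0133) was lost without day 3 replicate 1.

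Genes of glucose use and lactate gave 0 higher, 11 lower and 20 that did not pass of 31, with a median log2 change of -0.73, and 0 higher and 7 lower without the 2 libraries that stood apart. With the length and GC trends removed, 2 were higher and 14 lower, and with scaling by library totals 0 were higher and 7 lower. SLC2A1, the main glucose transporter of early cells, was at 82.8, 155 and 371 CPM at day 3, against 652, 497 and 709 CPM at day 1 (-1.61 ± 0.38). HK1, the first enzyme of glycolysis, was at 48.3, 78.9 and 105 CPM at day 3, against 307, 215 and 304 CPM at day 1 (-1.83 ± 0.27). PGAM1, a later glycolytic enzyme, was at 239, 385 and 493 CPM at day 3, against 874, 606 and 929 CPM at day 1. In all 3 genes day 3 replicate 1 was the lowest and day 3 replicate 3 the highest of its day. The summed level of the list ran the same way, at 11785, 16705 and 21120 CPM in the day 3 libraries, against 27125, 21275 and 27804 CPM in the day 1 libraries.

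Genes of the contractile apparatus and of excitation were read for early traces of muscle. Of 35, 19 were higher at day 3, 7 lower and 9 did not pass, with a median log2 change of 1.08, and 16 were higher and 3 lower without the 2 libraries that stood apart. With scaling by library totals, 20 were higher and 3 lower. TNNC1, the cardiac and slow troponin C, was at 27.3, 37.7 and 40.1 CPM at day 3, against 3.56, 2.25 and 3.37 CPM at day 1 (3.53 ± 0.33). TTN, which encodes titin, was at 13.8, 8.33 and 6.73 CPM at day 3, against 0.696, 1.42 and 0.691 CPM at day 1. TNNT2, the cardiac troponin T used to score cardiomyocytes, was at 0.977, 1.17 and 1.71 CPM at day 3, against 1.24, 0.634 and 1.99 CPM at day 1, and did not pass. TNNC1 and TTN rose and TNNT2 did not pass, and the day 28 means of the 3 genes were 2258, 2441 and 3920 CPM. ACTA1, the skeletal actin, fell to 0.444, 1.40 and 1.61 CPM at day 3, against 8.97, 7.66 and 9.68 CPM at day 1.

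Markers of other cell types that the cultures could hold were read as well. Of 19 genes of definitive endoderm and liver, 10 were higher at day 3, 3 lower and 6 did not pass, with a median log2 change of 2.40. The counts were 10 and 2 without the 2 libraries that stood apart. The summed level of the list was 461, 529 and 750 CPM at day 3, against 431, 443 and 438 CPM at day 1, and 2 members had no read at day 1. SOX17, a factor of endoderm and of endothelium, was at 77.5, 115 and 171 CPM at day 3 and had no read in any day 1 library, so that with 3 reads over the day as the floor it was at least 1631-fold higher. FOXA2, a factor of endoderm and of anterior streak, was at 41.0, 63.6 and 70.3 CPM at day 3, against 46.7, 34.9 and 42.3 CPM at day 1, and did not pass. HNF4A, a factor of liver and gut, was at 3.11, 3.97 and 3.42 CPM at day 3, against 0, 0.0976 and 0.0864 CPM at day 1, while the plasma protein genes ALB and TTR were at 0.133 CPM or less in every library of both days.

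Of 16 tested paraxial mesoderm genes, 9 were higher at day 3, 1 lower and 6 did not pass. Their median log2 change was 2.22, or 1.99 with genes at 0 on day 1 placed at their floor. Without the 2 libraries that stood apart, 7 were higher and 1 lower. The summed level was 203, 370 and 569 CPM at day 3, against 93.1, 72.4 and 108 CPM at day 1, with 5 of 19 members at 0 at day 1. MSGN1, the defining factor of presomitic mesoderm, fell to 1.78, 2.72 and 3.82 CPM at day 3, against 22.2, 18.5 and 25.8 CPM at day 1. FOXC2, shared with head mesoderm and vessels, was at 2.98, 8.64 and 10.4 CPM at day 3 with 0 reads at day 1, at least 93.3-fold higher. The somite factors PAX3, MEOX1 and UNCX were each under 2 CPM in every library. The part of paraxial and of endodermal cells in the other results was not tested.

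Endothelial and blood genes gave 6 higher, 4 lower and 10 that did not pass of 20 tested, with a median log2 change of 0.95. The counts were 4 and 4 without the 2 libraries that stood apart. Their summed level was 294, 235 and 270 CPM at day 3, against 371, 519 and 318 CPM at day 1. KDR, whose levels are given above and which did not pass, put the libraries of both days in the same order. A summed level can follow a single abundant gene, and the median change of this list was upward. TIE1, a receptor of endothelium, was at 0.400, 1.40 and 0.502 CPM at day 3, against 9.27, 5.76 and 7.35 CPM at day 1, whereas PECAM1 was at 1.95, 1.09 and 1.31 CPM at day 3, against 0, 0 and 0.0864 CPM at day 1. ETV2, the master factor of blood vessel fate, was at 2.53, 4.05 and 1.61 CPM at day 3, against 1.85, 0.781 and 2.07 CPM at day 1, and did not pass. Endothelial genes thus changed in both directions, and the part of endothelial cells in the other results was not tested.

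Neural genes were mostly untested, 13 of 22, and gave 2 higher, 2 lower and 5 that did not pass, with a median log2 change of 0.36 and counts of 1 and 2 without the 2 libraries that stood apart. Their summed level was 421, 460 and 496 CPM at day 3, against 302, 226 and 333 CPM at day 1. STMN2, a neuronal microtubule regulator, was at 95.1, 45.9 and 80.3 CPM at day 3, against 0.927, 2.15 and 0.864 CPM at day 1 (5.73 ± 0.36, edgeR adjusted p = 1.06e-11), and its day 5 mean was 0.631 CPM. The early neural gene SOX3 fell by 1.97 ± 0.50 on the log2 scale, and SOX1 had too few reads to be tested. Of 15 fibroblast and stroma genes, 5 were higher at day 3, 3 lower and 7 did not pass, with a median log2 change of 1.07, but 1 was higher and 2 lower without the 2 libraries that stood apart. Their summed level was 462, 727 and 620 CPM at day 3, against 660, 480 and 709 CPM at day 1, and LUM and DCN stayed under 0.5 CPM on both days. The part of neural and stromal cells in the other results was not tested.

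Seen against the rest of the time course, most genes called lower at day 3 by at least 2-fold were already expressed in stem cells. Of 2696 such genes, 2068 (76.7%) had a day 0 mean of at least 50% of their day 1 mean, and 756 (28.0%) had a day 28 mean of at least 50% of it. Of 3356 genes called higher by at least 2-fold, 1354 (40.3%) had a day 0 mean of at least 50% of their day 3 mean. Among the same genes, 2634 (78.5%) kept at least 50% of the day 3 mean at day 5 and 2386 (71.1%) at day 28, while 417 (12.4%) were below that on both later days. Since the day 1 and day 3 means enter these shares as well as the calls, the shares are descriptions with no test. The same shares over all tested genes were not computed. Whether the called genes differ from the rest in this respect is therefore not known.

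Marker genes of the day 3 and day 1 labels took different courses. MESP1 had means of 0.111 CPM at day 0, 1.41 CPM at day 1, 57.5 CPM at day 3 and 2.75 CPM at day 5. HAND1 had means of 0.0856, 0.0546, 210 and 142 CPM on those days. TBXT had means of 0.247, 512, 16.3 and 1.90 CPM on those days and so peaked at day 1. PDGFRA, by contrast, had a mean of 268 CPM at day 3 and 487 CPM at day 5.

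**Figure D5:**
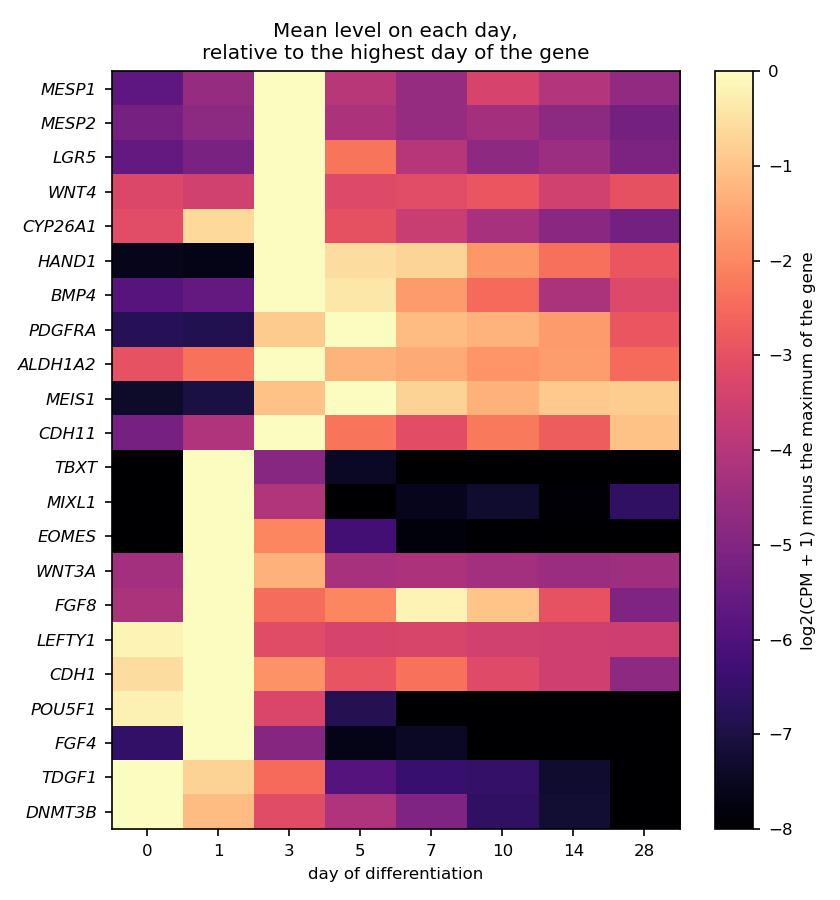
Mean level of selected genes on each day of differentiation from day 0 to day 28, drawn as log2(CPM + 1) relative to the highest day of the gene, so that the brightest cell of each line is its own peak and black is 8 or more log2 units below it. MESP1, MESP2 and LGR5 peak at day 3, with day 5 means of 2.75, 1.76 and 11.9 CPM, HAND1 has a day 5 mean of 142 CPM and a day 28 mean of 27.4 CPM, and TBXT, MIXL1 and EOMES peak at day 1.

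The 3 day 3 libraries differed in level, in opposite orders for 2 sets of genes picked after their values were seen. Other genes followed neither order, and HAND1 and BMP4 were highest in replicate 2. MESP1, POU5F1, EOMES, DLL1, SLC2A1 and CYP26A1 were lowest in replicate 1 and highest in replicate 3, with CYP26A1 at 6.13, 19 and 96.9 CPM. PDGFRA, MEIS1, NRP1, LGR5, CDK6 and PRRX1 were highest in replicate 1 and lowest in replicate 3, with PRRX1 at 41.6, 16.7 and 2.21 CPM. Replicate 1 is also the deepest library and the one with the highest level of long genes, and depth, gene length and the state of the cells cannot be told apart in a single library. In the day 1 libraries MESP1 lay between 0.683 and 2.07 CPM and POU5F1 lay between 1358 and 2277 CPM.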

How the data were processed

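Total RNA of H1 cells was sequenced as paired ends on an Illumina NextSeq. The authors deposited whole-number counts per gene for all 23 libraries in 1 table. Per the submitters' processing notes and the series' design text, STAR 2.7.0 aligned the reads to GRCh38 (hg38) after Trim Galore 0.65 had shortened them to 50 bases, and HTSeq made counts for the genes of GENCODE 38. Whether counting used strand is not given in the sources used here, so reads of overlapping antisense genes may be mixed.

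From these counts, 44 copies of Y-linked pseudoautosomal genes were left out, and edgeR 4.0.16 (limma 3.58.1, R 4.3.3) was run on all 23 libraries with day as the only term. Genes were kept by a minimum of 10 counts, which left 22245, and were scaled with the trimmed mean of M-values. Calls used the quasi-likelihood test with Benjamini-Hochberg adjustment over all tested genes at 0.05. Gene names came from the GENCODE annotation supplied with the genome, a later release, which matched 56387 identifiers and missed 1090. Total counts ran from 9252641 to 21233225 in the 6 libraries compared. Genes at 0 on day 1 were given a lower bound with a floor of 3 counts over the day, which covers counting error only.

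Named genes were called genes without overlap of the days and at 20 CPM or more on either day, 15 with the largest log2 change in each direction, 5 lncRNAs in each direction with at least 5 CPM, 6 markers, and members of the gene lists, mostly with at least 10 CPM. Members that did not pass, low ones of known role and some others were also named after their values were seen. The members and lists were chosen with earlier results of these data known. In simulated data of 21516 genes for this comparison, all genes but those given a 2-fold or 4-fold change were set equal between the days. The test recovered 12 of 100 genes with a 2-fold change and 79 of 100 with a 4-fold change. It called 5 unchanged genes. In the data 37.2% of genes were called, which loosens the adjustment, so these shares do not give the recovery there. Other scalings, filters, DESeq2 1.42.0, the 6 libraries alone, a replicate block and leaving out each library were tried. Leaving out the 2 libraries that stood apart together, and removing length and GC trends, were added after the data were seen. Some genes are not reported here.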

Additional observations from a re-analysis of the deposited data

How the results depend on the processing

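The comparison called 4049 genes higher and 4227 lower at day 3, and no alternative run called a gene in the opposite direction. With RLE scaling the counts were 4147 and 4022, with library totals 5243 and 2951, with all genes that had a count 4491 and 3625, with DESeq2 4183 and 4252, and with the 6 libraries alone 3726 and 3136. Leaving out 1 library gave 2882 to 4563 higher and 2823 to 3949 lower, the lowest pair without day 3 replicate 1. Without day 3 replicate 1 and day 1 replicate 2 together, 2855 and 2926 genes were called, of which 2719 and 2911 were among the calls above. With a replicate block the counts were 4026 and 4150. Deviations of same-numbered libraries from their days had correlations of -0.319, -0.419 and 0.210. The highest, 0.604, was between day 3 replicate 1 and day 1 replicate 2, the 2 libraries that stood apart. The labels do not say whether same-numbered libraries belong together, and these values cannot settle it. With length and GC trends removed, 4839 genes were higher and 5380 lower, and 4 named or listed genes changed sign: FZD3 to -0.46 ± 0.15, ACVR1B to 0.29 ± 0.12, EED to -0.43 ± 0.14 and SGCE to -0.03 ± 0.18 (edgeR adjusted p = 0.0136, 0.0448, 0.0183 and 0.92), and the cause was not tested. The share of lower genes already expressed at day 0 was 72.0% to 77.4%, and the share of higher genes kept at day 5 was 74.9% to 83.0%. Library totals turned the balance of the FGF list to 10 higher and 7 lower and of the methylation and Polycomb list to 7 higher and 4 lower. Depth of 9252641 counts or more left genes under about 1 CPM with few reads. Changes near 2-fold were seldom recovered in a simulation with nearly all genes unchanged, which does not give their recovery in the data.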

Other observations

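Long noncoding RNAs moved upward more often than downward. Of 3995 tested, 729 (18.2%) were higher at day 3 and 357 (8.94%) lower, with a median log2 change of 0.35. Genes of other or unmatched type also leaned upward, with 365 (13.9%) of 2628 tested higher and 219 (8.33%) lower. Of 15622 protein-coding genes, by contrast, 2955 (18.9%) were higher and 3651 (23.4%) lower, with a median of -0.06. LINC01213 was at 5.29, 6.30 and 4.12 CPM at day 3 without a read at day 1, and with 3 reads over the day as the floor it was at least 79.8-fold higher. MEIS1-AS3, antisense to MEIS1, was at 6.35, 5.06 and 4.22 CPM at day 3, against 0, 0.0488 and 0 CPM at day 1, and its reads may be mixed with those of MEIS1. LINC01780 was at 0.178, 0.778 and 0.603 CPM at day 3, against 17.3, 12.6 and 15.8 CPM at day 1 (edgeR adjusted p = 4.77e-09).

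Imprinted genes, which are expressed from 1 parental copy, gave 11 higher, 2 lower and 9 that did not pass of 22, with a median log2 change of 0.86 and counts of 10 and 2 without the 2 libraries that stood apart. The growth factor IGF2 was at 13.9, 13.3 and 8.04 CPM at day 3, against 0.386, 0.0976 and 0.173 CPM at day 1 (5.79 ± 0.61, edgeR adjusted p = 4.89e-08). MEG3 and DLK1, neighbours expressed from opposite parental copies, both rose, by 4.09 and 3.16 on the log2 scale. SNRPN was at 19.7, 21.4 and 17.3 CPM at day 3, against 38.6, 36.5 and 39.0 CPM at day 1. Parental origin was not measured.

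Lipins and other enzymes of phosphatidic acid gave 5 higher, 3 lower and 11 that did not pass of 19, with a median log2 change of -0.04, or 0.20 with scaling by library totals. The counts were again 5 and 3 without the 2 libraries that stood apart, but 8 higher and 5 lower with length and GC trends removed. PLPP3, a surface lipid phosphatase, was at 77.3, 56.7 and 92.4 CPM at day 3, against 10.4, 10.4 and 8.73 CPM at day 1 (2.94 ± 0.26). Its paralog PLPP2 was at 13.5, 15.9 and 21.8 CPM at day 3, against 111, 82.1 and 125 CPM at day 1 (-2.64 ± 0.35). The PLPP3 and PLPP2 calls were opposite, with no overlap of the days in either.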
